A study of Homo sapiens with 16 samples.

Results

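ZR-75-30 and BT474 are established human breast cancer cell lines, both luminal and both known for an excess of the receptor ERBB2 (HER2). The comparison described here sets 2 libraries of ZR-75-30 monolayers against 2 of BT474 monolayers, that is 4 of the 16 libraries of a study that also holds monolayers of HCC1806 and CAL148 and spheroids of HCC1806 and BT474 taken at day 10 and day 20. The members were chosen by their labels: the ZR-75-30 and BT474 libraries grown flat, untreated. Of 58735 annotated genes, 16884 had enough counts in these 4 libraries to be tested. ZR-75-30 was kept in RPMI 1640 and BT474 in DMEM, each with 10% foetal bovine serum at 5% CO2. HCC1806 shared the medium of ZR-75-30 and CAL148 that of BT474. Each medium was used for a single line of the pair, so line and medium cannot be told apart in any difference below. Nothing in the labels says that the 2 libraries of a line came from separate cultures, so the p-values measure only a spread between libraries, which may be technical. That spread was estimated over the replicate pairs of all 16 libraries, not from these 4 alone. Over the tested genes, log2 levels differed between replicates with an SD of 1.41 in HCC1806 monolayers and 0.21 in BT474 day 10 spheroids.

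ERBB2 encodes a receptor tyrosine kinase of the EGF receptor family. It binds no ligand itself and signals as a partner of EGFR, ERBB3 or ERBB4, ERBB3 being its main route to PI3K. In breast cancer its excess nearly always comes from extra copies of a stretch of chromosome 17q that also holds neighbours such as GRB7, STARD3, PGAP3 and MIEN1, and how far that stretch reaches differs between tumours. In luminal cells the receptor works beside the oestrogen receptor ESR1 and its companions FOXA1 and GATA3, with the progesterone receptor PGR as a classical target of ESR1.

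Total counts were 39882173 and 32027743 in the ZR-75-30 libraries and 41168105 and 41805432 in the BT474 libraries. Mitochondrially encoded genes took 1.96% of the counts of ZR-75-30 replicate 1 and 20.5% of those of replicate 2, against 2.43% and 2.31% in BT474. Over the tested genes, log2 levels differed between the 2 ZR-75-30 libraries with an SD of 0.84 and between the BT474 libraries with an SD of 0.34, and 21.4% of the genes lay more than 2-fold apart between the ZR-75-30 libraries, against 1.09% in BT474. A gene is called higher or lower below only where its adjusted p was under 0.05 and both ZR-75-30 libraries lay on the same side of both BT474 libraries. Counts of called list members stand against 16.5% higher and 18.5% lower, 35.0% in all, among all tested genes. For gene lists, a sentence after the counts gives their range with 1 of the 4 libraries left out, and in brackets each library without which a count moved by over 1.5 times and by more than 1 gene, or the median by over 1.5 times or in sign. Where leaving out 1 of the 4 libraries ended a call, that library is named, with the adjusted p without it in brackets. Levels are CPM, each count as a share of its library's total scaled by the trimmed mean of M-values, given for replicates 1 and 2 in that order. Log2 fold changes are ZR-75-30 minus BT474, with the standard error after the ± sign, and each adjusted p comes from edgeR's quasi-likelihood test with Benjamini-Hochberg adjustment over all tested genes. A level per transcript length is given as FPKM where 2 genes are compared. Where a line had 0 counts, the fold is a lower bound against 3 counts over its 2 libraries, and where it had 1 to 3 counts the ratio is given with an interval for counting error only, which is too narrow if both mates of a pair were counted.

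Both lines had the transcripts of luminal epithelial cells, and most markers of other cell types in a short panel were at or near 0. The summed CPM of 8 epithelial markers was 6017 and 10186 in ZR-75-30 and 9236 and 7759 in BT474, and that of 5 luminal markers was 3523 and 3914 against 2218 and 2174. The basal keratins KRT5 and KRT14 had 0 counts in both ZR-75-30 libraries and at most 0.186 CPM in BT474. The defining fibroblast genes DCN, PDGFRB and COL1A2, the endothelial gene PECAM1 and the leukocyte gene PTPRC had 0 counts in all 4 libraries. Exceptions were COL1A1, a fibroblast collagen, VWF, an endothelial clotting factor, and TP63, a basal factor. COL1A1 stood at 23.6 and 18.2 CPM in ZR-75-30 and 72.9 and 72.5 CPM in BT474 and made up nearly all of the summed 5 fibroblast markers, 23.6 and 18.2 against 73.0 and 72.5 CPM. VWF stood at 0.429 and 0.193 CPM against 7.87 and 6.79, in a summed level of 3 endothelial markers of 0.429 and 0.193 against 8.43 and 6.79 CPM, and TP63 at 0.107 and 0 CPM against 4.05 and 2.25. The 4 leukocyte markers summed to at most 0.289 CPM. Wider lists of such genes held more. A list of 14 fibroblast genes summed to 90.1 and 305 CPM in ZR-75-30 and 88.5 and 86.0 CPM in BT474. A list of 23 basal and myoepithelial genes summed to 106 and 146 CPM in ZR-75-30 and 136 and 127 CPM in BT474. Both wider lists held members called higher in ZR-75-30, such as ACTA2, and members called lower. The part of such transcripts in the results was not tested. The exception among the epithelial markers was E-cadherin, described below, which was nearly missing in ZR-75-30. ERBB2 itself stood at 8698 and 9054 CPM in ZR-75-30 and 7321 and 6441 CPM in BT474, against 122 to 342 CPM in the monolayers of HCC1806 and CAL148.

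Of the 16884 genes, 2781 were called higher in ZR-75-30 (16.5%) and 3123 lower (18.5%), 35.0% in all. By adjusted p alone 2787 were higher and 3124 lower, so the rule against overlap removed few genes. Of all tested genes, 11778 (69.8%) had both ZR-75-30 libraries on the same side of both BT474 libraries. A difference of more than 1 on the log2 scale was found for 5096 of the 5904 called genes, and 7703 genes had an unadjusted p under 0.05. The median log2 fold change of all tested genes was -0.07. With the 4 libraries fitted alone, which leaves 2 residual degrees of freedom against 8, 1978 genes were called higher (11.7%) and 2237 lower (13.2%), and 3934 of the 5904 calls held there. With the spheroids left out of the fit, the 8 monolayers gave 829 higher and 1017 lower. Without ZR-75-30 replicate 2, 2013 genes were higher and 2278 lower, and 3306 of the calls held both without that library and without its partner. Many genes had counts in only 1 line of the pair: 539 of the genes called lower had 0 counts in both ZR-75-30 libraries, and 130 of those called higher had 0 counts in both BT474 libraries. Such genes passed the count filter only through the other line, so their direction was fixed in advance. Where such a gene is named below, its adjusted p adds no support for that direction. Depth also differed, with 3 counts over a line's libraries equal to 0.0517 CPM in ZR-75-30 and 0.0348 CPM in BT474. Counts were found for 21496 and 19417 genes in ZR-75-30 and 24051 and 24023 in BT474. The part of depth in the uneven numbers was not tested. In bulk RNA, fewer cells with a transcript and less of it per cell cannot be told apart.

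**Figure D1:**
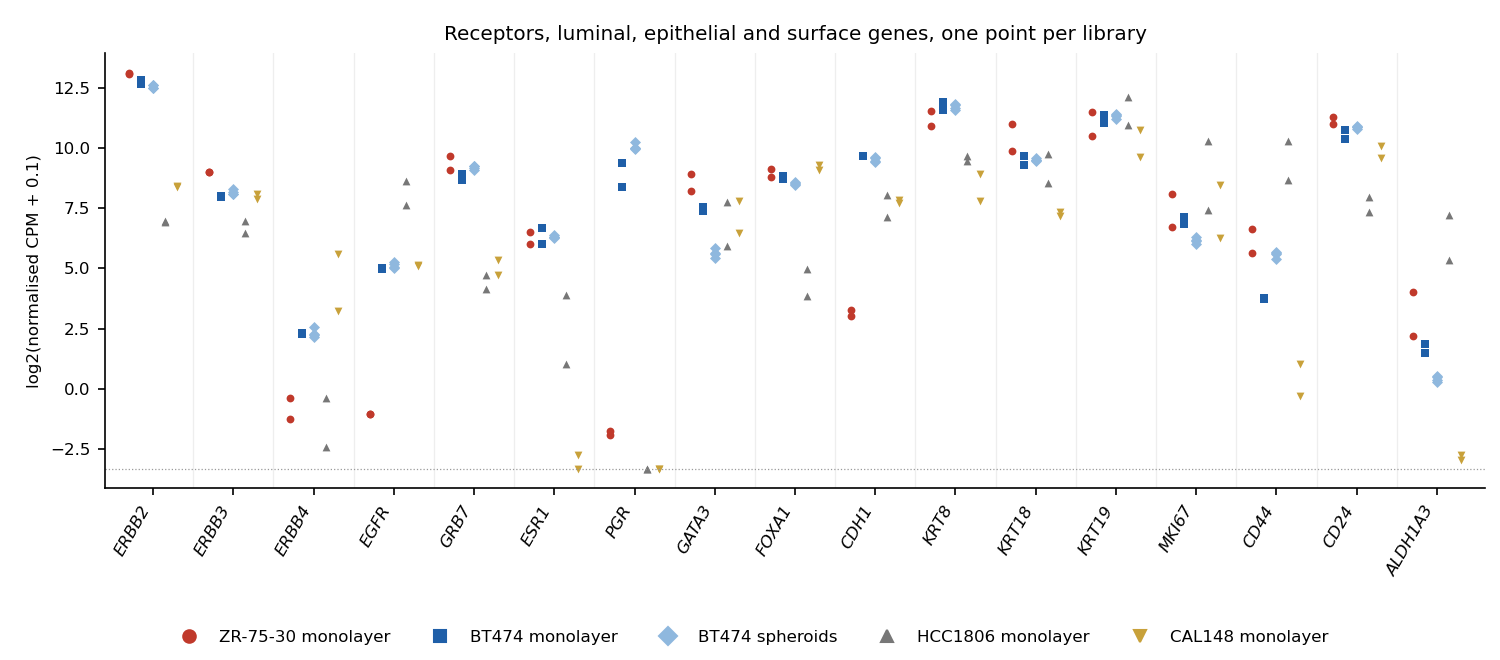
Receptor, luminal, epithelial and surface genes of a set panel, with log2(normalised CPM + 0.1) on the y axis and 1 point per library, for ZR-75-30 and BT474 monolayers, BT474 spheroids, and HCC1806 and CAL148 monolayers. ERBB2 points of the pair lie close together near the top, while the ZR-75-30 points of PGR, EGFR and CDH1 lie far below those of BT474.

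ERBB2 itself was not called, though both ZR-75-30 libraries lay above both BT474 libraries. Its log2 fold change was 0.37 ± 0.22 (adjusted p = 0.224). It was called with DESeq2 and without the HCC1806 monolayers, with an adjusted p of 0.00154 to 0.629 over all alternatives. The genes on either side did not follow 1 pattern: of its neighbours, STARD3, PGAP3, MIEN1 and GRB7 were high in both lines, and many genes further out were high in BT474 alone. GRB7, an adaptor that docks on ERBB2, stood at 541 and 815 CPM in ZR-75-30 and 488 and 408 CPM in BT474 (0.60 ± 0.29, adjusted p = 0.133). STARD3, a cholesterol-binding protein of late endosomes, stood at 1025 and 1408 CPM in ZR-75-30 and 1050.2 and 864 CPM in BT474 (0.35 ± 0.23, adjusted p = 0.267). Neither of these was called. PGAP3, which remodels lipid anchors, was higher in ZR-75-30, at 1177 and 1557 CPM against 618 and 529 (1.25 ± 0.34, adjusted p = 0.0155). MIEN1, a membrane protein of the same interval, stood at 476 and 1227 CPM against 189.5 and 181 (2.2 ± 0.60, adjusted p = 0.016). The call on PGAP3 was lost without ZR-75-30 replicate 2 (0.0833), without BT474 replicate 1 (0.0624) and without BT474 replicate 2 (0.105), in a range of 0.000152 to 0.134 over all alternatives. That on MIEN1 was lost without ZR-75-30 replicate 2 (0.139), without BT474 replicate 1 (0.0871) and without BT474 replicate 2 (0.0941), in a range of 0.000436 to 0.139 over all alternatives. PNMT, the enzyme that makes adrenaline, lies between STARD3 and PGAP3 and was the exception. It differed between the BT474 replicates, at 25.2 and 3.87 CPM, and stood at 0.376 and 0.771 CPM in ZR-75-30 (-4.70 ± 1.14, adjusted p = 0.00875). The call on PNMT was lost without ZR-75-30 replicate 1 (0.0552) and without BT474 replicate 1 (0.1), in a range of 4.12e-05 to 0.557 over all alternatives.

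On the centromeric side, BT474 had far more RNA. MED1, a subunit of the Mediator complex that binds nuclear receptors, stood at 1054 and 1239 CPM in BT474 and 41.1 and 22.9 CPM in ZR-75-30 (-5.16 ± 0.50, adjusted p = 3.7e-05). The HCC1806 and CAL148 monolayers held 35.3 to 110.1 CPM, so 1 ZR-75-30 library lay within that range and 1 below it. CDK12, a kinase that acts on elongating RNA polymerase II, stood at 605 and 827 CPM in BT474 and 55.9 and 27.3 CPM in ZR-75-30 (-4.10 ± 0.57, adjusted p = 0.000363). FBXL20, an F-box protein, stood at 281 and 339 CPM in BT474 and 16.8 and 14.1 CPM in ZR-75-30 (-4.32 ± 0.37, adjusted p = 1.74e-05). The ribosomal protein gene RPL19, at the same end, stood at 6506 and 6625 CPM in BT474 and 371 and 1039 CPM in ZR-75-30 (-3.22 ± 0.63, adjusted p = 0.00277). LASP1, an actin-binding protein and the first listed gene on this side, was high in both lines against 198 to 547 CPM elsewhere, at 5072 and 5249.6 CPM in BT474 and 2644 and 2439.6 CPM in ZR-75-30 (-1.02 ± 0.34, adjusted p = 0.0373), and its call was lost without ZR-75-30 replicate 1 (0.0797), without ZR-75-30 replicate 2 (0.135), without BT474 replicate 1 (0.113), without BT474 replicate 2 (0.129) and with the 4 libraries alone (0.0778), in a range of 0.000201 to 0.232 over all alternatives. PPP1R1B, encoding the phosphatase inhibitor DARPP-32 and lying between these genes and ERBB2, went the other way, with 125 and 114 CPM in ZR-75-30 and 2.91 and 0.926 CPM in BT474 (5.96 ± 1.01, adjusted p = 0.00157).

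The telomeric side was also higher in BT474. MED24, another Mediator subunit, stood at 1012 and 920.0 CPM in BT474 and 48.3 and 47.9 CPM in ZR-75-30, with both ZR-75-30 libraries below the 64.7 to 69.5 CPM of the other lines (-4.33 ± 0.19, adjusted p = 2.67e-07). GSDMB, a gasdermin, stood at 52.1 and 56.2 CPM in BT474 and 2.25 and 2.22 CPM in ZR-75-30 (-4.60 ± 0.73, adjusted p = 0.000816). Beyond them, NR1D1, a nuclear receptor of the circadian clock, was higher in ZR-75-30 with 25.1 and 19.4 CPM against 4.0 and 4.05 (2.47 ± 0.26, adjusted p = 5.26e-05). TNS4, a tensin of focal adhesions, was also higher, with 57.5 and 87 CPM in ZR-75-30 and 1.47 and 1.16 CPM in BT474 (5.78 ± 0.33, adjusted p = 3.16e-06). TOP2A, the topoisomerase often gained with ERBB2, stood at 177 and 41.9 CPM in ZR-75-30 and 241 and 260.1 CPM in BT474 and was not called (-1.20 ± 0.88, adjusted p = 0.319). Over the 31 tested genes listed for this region, which earlier results of these data had helped to choose, 5 were called higher in ZR-75-30 and 16 lower, with a median log2 fold change of -1.20 against -0.07 for all genes. For this region, leaving out 1 library gave 3 to 5 higher (fewer without ZR-75-30 replicate 2 or either BT474 library), 12 to 15 lower and a median of -1.38 to -0.96. Set against the HCC1806 and CAL148 monolayers, both BT474 libraries lay above all 4 for 23 of the 31 genes and both ZR-75-30 libraries for 11, of which 10 were shared. The same share over all tested genes was not worked out, here or for the segments below. These counts above the other lines therefore have no background to stand against.

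**Figure D2:**
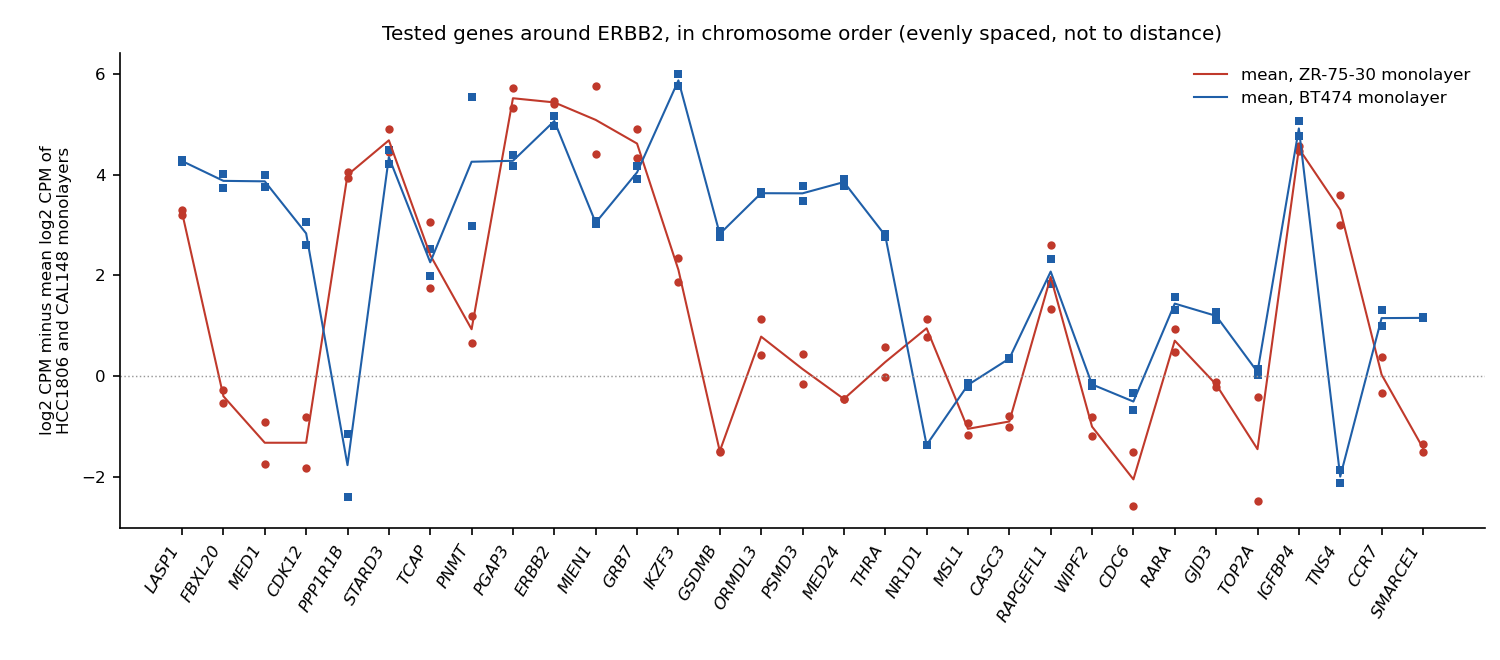
Tested genes around ERBB2 in chromosome order, evenly spaced, with the log2 CPM of each library minus the mean log2 CPM of the 4 HCC1806 and CAL148 monolayers on the y axis; points are libraries and lines join the means of the 2 libraries. Both lines stand high at STARD3, PGAP3, ERBB2, MIEN1 and GRB7, and BT474 alone stays high at FBXL20, MED1, CDK12 and MED24.

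A pair of other segments often gained in ERBB2-positive tumours were read the same way. In the 17q23 segment, 2 of 19 tested genes were called higher in ZR-75-30 and 9 lower, with both libraries above all 4 monolayers of the other lines for 8 genes in ZR-75-30 and 13 in BT474. The 8 ZR-75-30 genes were all among the 13. For this segment, leaving out 1 library gave 2 higher, 4 to 9 lower (fewer without BT474 replicate 2) and a median of -1.76 to -0.86. PPM1D, a phosphatase that restrains p53, stood at 231 and 164 CPM in ZR-75-30 and 66.3 and 63.2 CPM in BT474 (1.61 ± 0.24, adjusted p = 0.000538), and its level in the other lines was 7.41 to 24 CPM. APPBP2 stood at 852 and 579 CPM in ZR-75-30 and 261 and 283 CPM in BT474 (1.39 ± 0.21, adjusted p = 0.000543), against 30.7 to 50.4 CPM in the other lines. TBX2, a T-box repressor of the same segment, was higher in BT474, with 21.2 and 23.9 CPM against 0.349 and 1.93 (-4.36 ± 0.76, adjusted p = 0.00135). TUBD1, delta tubulin, followed it at 62.8 and 69 CPM against 14.3 and 8.81 (-2.51 ± 0.44, adjusted p = 0.00139).

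In the 20q13 segment none of 39 tested genes was called higher in ZR-75-30 and 28 were called lower, with a median of -1.58. The BT474 libraries lay above the other lines for 28 of the 39 and the ZR-75-30 libraries for 5. NCOA3, a coactivator of steroid receptors, stood at 727 and 911 CPM in BT474 and 135 and 45.1 CPM in ZR-75-30 (-3.18 ± 0.49, adjusted p = 0.000675), and the other lines held 53.4 to 121 CPM. BMP7, a bone morphogenetic protein, stood at 489.7 and 362 CPM in BT474 and 0.59 and 2.99 CPM in ZR-75-30 (-7.95 ± 1.41, adjusted p = 0.00154). SULF2, which trims sulphate groups from heparan chains, stood at 20.3 and 9.98 CPM in BT474 and 0.912 and 0.482 CPM in ZR-75-30 (-4.40 ± 0.51, adjusted p = 0.000113). ZNF217, a repressor of the segment, stood at 283 and 329.9 CPM in BT474 and 160.5 and 87.4 CPM in ZR-75-30 (-1.31 ± 0.31, adjusted p = 0.00754), with the call lost with the 4 libraries alone (0.0559), in a range of 0.000286 to 0.0984 over all alternatives. DOK5, a docking protein, had 0 counts in ZR-75-30 and 5.94 and 8.15 CPM in BT474, which is at least 136-fold lower (adjusted p = 0.000236). AURKA, the mitotic kinase, stood at 326 and 287 CPM in BT474 and 57.9 and 37.4 CPM in ZR-75-30 (-2.69 ± 0.73, adjusted p = 0.0158), and its call was lost without ZR-75-30 replicate 2 (0.106) and without BT474 replicate 1 (0.0582), in a range of 0.000482 to 0.106 over all alternatives. BCAS1 and PREX1, which lie in the same segment, were high in both lines and not called: BCAS1 stood at 526 and 588 CPM in ZR-75-30 and 518 and 703 CPM in BT474, and PREX1, an exchange factor for Rac, at 997 and 573 CPM in ZR-75-30 and 960.2 and 1128 CPM in BT474.

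The partners of ERBB2 separated the lines. EGFR stood at 0.376 and 0.385 CPM in ZR-75-30 and 31.8 and 32.3 CPM in BT474 (-6.39 ± 0.36, adjusted p = 1.36e-06), so ZR-75-30 had nearly none of a receptor that the HCC1806 and CAL148 monolayers also contained, at 34.8 to 395 CPM. ERBB3 was higher in ZR-75-30, at 510.4 and 509 CPM against 253 and 256 (1.00 ± 0.20, adjusted p = 0.0033). ERBB4 was low in both, at 0.322 and 0.674 CPM in ZR-75-30 and 4.68 and 4.93 CPM in BT474 (-3.31 ± 0.85, adjusted p = 0.0118). The call on ERBB4 was lost without ZR-75-30 replicate 1 (0.0739), in a range of 0.000158 to 0.375 over all alternatives. Per transcript length, the order within ZR-75-30 was ERBB2 at 857 ± 38.5 FPKM (SD, n = 2), ERBB3 at 56.2 ± 0.832, ERBB4 at 0.0383 ± 0.0197 and EGFR at 0.0303 ± 0.00105. In BT474 it was ERBB2 at 653 ± 59.9, ERBB3 at 27.6 ± 0.225, EGFR at 2.51 ± 0.0276 and ERBB4 at 0.362 ± 0.0131 FPKM. EGFR lay within 1 SD of ERBB4 in ZR-75-30, so their order there is not settled. In BT474 all 4 lay further apart than their SDs.

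Ligands of the family also differed. EGF, the founding ligand of EGFR, was higher in ZR-75-30, the line with nearly none of its receptor, at 109 and 53.3 CPM against 3.47 and 3.54 (4.54 ± 0.45, adjusted p = 3.91e-05). AREG, amphiregulin, was lower, with 1.61 and 4.43 CPM against 11.9 and 12.8 (-2.05 ± 0.67, adjusted p = 0.0341), but the call was lost without ZR-75-30 replicate 1 (0.154), without BT474 replicate 1 (0.0935) and without BT474 replicate 2 (0.108), in a range of 0.00379 to 0.168 over all alternatives. NRG4, a neuregulin that binds ERBB4, stood at 5.96 and 3.08 CPM in ZR-75-30 and 0.186 and 0.139 CPM in BT474 (4.78 ± 1.27, adjusted p = 0.0158), with the call lost without BT474 replicate 1 (0.0953) and without BT474 replicate 2 (0.11), in a range of 0.000164 to 0.11 over all alternatives. The feedback inhibitor SPRY4 stood at 234 and 152 CPM in ZR-75-30 and 19.4 and 11.8 CPM in BT474 (3.63 ± 1.24, adjusted p = 0.0416), with the call lost without ZR-75-30 replicate 1 (0.0944), without ZR-75-30 replicate 2 (0.0719), without BT474 replicate 1 (0.141) and without BT474 replicate 2 (0.202), in a range of 0.000356 to 0.202 over all alternatives. In the list of the receptor family and its ligands, 5 of 18 tested genes were called higher in ZR-75-30 and 4 lower, with a median of 0.23. For the ERBB family, leaving out 1 library gave 2 to 5 higher (fewer without ZR-75-30 replicate 1 or either BT474 library), 3 to 4 lower and a median of -0.26 to 0.32 (lower without ZR-75-30 replicate 1).

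Other growth factor receptors went both ways: 11 of 33 tested genes of the list of receptors and PI3K signalling were called lower and 5 higher, with a median of -0.42. For these receptors, leaving out 1 library gave 3 to 5 higher (fewer without BT474 replicate 1), 9 to 12 lower and a median of -0.71 to -0.10 (lower without ZR-75-30 replicate 1, higher without ZR-75-30 replicate 2). MET, the receptor of hepatocyte growth factor, stood at 52.7 and 56.5 CPM in BT474 and 0.59 and 0 CPM in ZR-75-30 (-7.30 ± 0.81, adjusted p = 8.2e-05). RET, the receptor of GDNF ligands, stood at 73.8 and 41.4 CPM in BT474 and 1.05 and 0.771 CPM in ZR-75-30 (-5.96 ± 0.57, adjusted p = 3.06e-05). IRS1, the docking protein of the insulin and IGF1 receptors, had 38.5 and 47.6 CPM in BT474 and 0 counts in ZR-75-30, at least 834-fold lower (adjusted p = 0.000137). The FGF receptors switched: FGFR2 stood at 34.1 and 28.8 CPM in ZR-75-30 and 0.465 and 0.556 CPM in BT474 (5.93 ± 0.43, adjusted p = 5.94e-06), and FGFR1 at 13.7 and 10.5 CPM against 58.5 and 64.9 (-2.35 ± 0.42, adjusted p = 0.00171). MST1R, the receptor of macrophage-stimulating protein, stood at 35.1 and 20.0 CPM in ZR-75-30 and 4.1 and 2.06 CPM in BT474 (3.16 ± 0.35, adjusted p = 8.68e-05). DDR1, a collagen receptor kinase, was 2.22-fold higher in ZR-75-30, with 830.3 and 992 CPM against 419 and 400.0 (1.15 ± 0.20, adjusted p = 0.00134).

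The oestrogen receptor gene ESR1 overlapped between the lines, and the progesterone receptor gene PGR was nearly missing in ZR-75-30. ESR1 stood at 90.2 and 64.7 CPM in ZR-75-30 and 65.4 and 103 CPM in BT474, with overlapping libraries (-0.12 ± 0.64, adjusted p = 0.908). PGR had 0.161 and 0.193 CPM in ZR-75-30 against 336 and 677 in BT474 (-11.48 ± 0.66, adjusted p = 1.47e-05), and the BT474 spheroids held 988 to 1208 CPM. Only 6 and 4 counts stood behind PGR in ZR-75-30, so the size of the fold is imprecise, and the call held in all 18 alternatives. FOXA1, the pioneer factor, stood at 564 and 449.6 CPM in ZR-75-30 and 462 and 426 CPM in BT474 (0.19 ± 0.30, adjusted p = 0.655), and GATA3 at 301 and 493 CPM in ZR-75-30 and 187 and 169 CPM in BT474 (1.16 ± 0.53, adjusted p = 0.114). Neither was called.

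Among 29 tested luminal transcription factors, 6 were called higher and 7 lower, with a median of 0.00. For luminal factors, leaving out 1 library gave 2 to 7 higher (fewer without BT474 replicate 1), 6 to 8 lower and a median of -0.38 to 0.31 (lower without ZR-75-30 replicate 1, higher without ZR-75-30 replicate 2 or either BT474 library), and the 4 libraries alone gave 2 higher and 7 lower. TFAP2B, an AP-2 factor of the mammary lineage, had 0 counts in BT474 and 132 and 97.2 CPM in ZR-75-30, at least 3442-fold higher (adjusted p = 3.01e-05). CAL148 also held it, at 744 and 526 CPM. ELF5, which directs milk-forming alveolar cells, was the mirror case, with 33.6 and 45.6 CPM in BT474 against 0.268 and 0 (-7.92 ± 0.64, adjusted p = 1.21e-05). LMX1B, a LIM homeobox factor, stood at 179 and 164 CPM in BT474 and 22.8 and 23.5 CPM in ZR-75-30 (-2.89 ± 0.54, adjusted p = 0.00202). RARG, a retinoic acid receptor, was higher in ZR-75-30 at 78 and 81.9 CPM against 35.2 and 28.7 (1.32 ± 0.30, adjusted p = 0.0066), with the call lost without BT474 replicate 2 (0.0624), in a range of 6.79e-05 to 0.0884 over all alternatives.

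Genes that respond to oestrogen went both ways, with 5 of 27 tested called higher and 8 lower and a median of -0.09. For oestrogen-responsive genes, leaving out 1 library gave 3 to 5 higher (fewer without either BT474 library), 6 to 7 lower and a median of -0.25 to 0.34 (lower without BT474 replicate 1, higher without BT474 replicate 2 or either ZR-75-30 library). GREB1, a coactivator induced by the oestrogen receptor, stood at 323 and 663 CPM in BT474 and 136 and 33.9 CPM in ZR-75-30 (-2.53 ± 0.54, adjusted p = 0.00447). The call on GREB1 was lost with the 4 libraries alone (0.0582), in a range of 2.9e-05 to 0.12 over all alternatives. CXCL12, a chemokine and oestrogen target, had 0 counts in ZR-75-30 and 18 and 28.8 CPM in BT474, at least 453-fold lower (adjusted p = 0.000515). TFF1, a trefoil peptide and classical target, was not called: the ZR-75-30 libraries stood at 41.2 and 369 CPM, the second of them between the BT474 values of 327 and 389 (-0.80 ± 0.83, adjusted p = 0.489). AGR3, a disulphide isomerase of secretory cells, was higher in ZR-75-30, with 32.6 and 103 CPM against 4.05 and 7.06 (3.61 ± 0.67, adjusted p = 0.00255). FHL2, a LIM protein that binds steroid receptors, stood at 54.1 and 62.4 CPM in ZR-75-30 and 3.68 and 2.92 CPM in BT474 (4.14 ± 0.62, adjusted p = 0.000536).

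Among 18 androgen-responsive genes, 7 were called higher in ZR-75-30 and 3 lower, with a median of 0.91. For androgen-responsive genes, leaving out 1 library gave 6 to 7 higher, 1 to 4 lower (fewer without ZR-75-30 replicate 1) and a median of 0.72 to 1.24. FKBP5, a cochaperone of steroid receptors, stood at 25.8 and 7.18 CPM in ZR-75-30 and 0.465 and 0.602 CPM in BT474 (4.94 ± 0.95, adjusted p = 0.00242). SLC45A3, a prostate-type sugar transporter, stood at 19.6 and 17.8 CPM in ZR-75-30 and 1.44 and 1.41 CPM in BT474 (3.71 ± 0.47, adjusted p = 0.000181). The metal reductase STEAP2 had 0 counts in BT474 and 13.5 and 8.57 CPM in ZR-75-30, at least 337-fold higher (adjusted p = 0.000376). PMEPA1, which is also induced by TGF-beta and lies in 20q13, went the other way, at 334 and 323 CPM in BT474 and 38.3 and 44.6 in ZR-75-30 (-2.99 ± 0.52, adjusted p = 0.00144).

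Cell adhesion genes differed between the lines. CDH1, E-cadherin, stood at 8.05 and 9.63 CPM in ZR-75-30 and 822 and 810.3 CPM in BT474 (-6.53 ± 0.33, adjusted p = 5.48e-07). The HCC1806 and CAL148 monolayers held it at 142 to 267 CPM, above both ZR-75-30 libraries. Its catenin partners were not called: CTNND1, p120 catenin, stood at 589.7 and 357 CPM in ZR-75-30 and 469.5 and 500.2 CPM in BT474 (-0.03 ± 0.29, adjusted p = 0.941), and CTNNA1, alpha catenin, at 914 and 653 CPM in ZR-75-30 and 585 and 567 CPM in BT474 (0.44 ± 0.21, adjusted p = 0.12). EPCAM was likewise not called, at 294 and 334 CPM in ZR-75-30 and 242 and 227 CPM in BT474 (0.42 ± 0.17, adjusted p = 0.0695). VIM and TWIST1, which mark mesenchymal change, were lower in the line with little E-cadherin. Not only mesenchymal genes were lower there. The epithelial splicing regulators ESRP1 and ESRP2 were also called lower, and whether these calls held with 1 library left out is not given here. Of 15 tested genes of breast epithelial identity, CDH1 and ESRP1 among them, 5 were called higher and 3 lower, with a median of 0.42. Leaving out 1 library gave a median of 0.34 to 0.56 for that list. VIM, vimentin, had 0.0537 and 0 CPM in ZR-75-30 and 15 and 21.3 CPM in BT474. From the summed counts BT474 was 527-fold higher (95% interval for counting error 146 to 4354, adjusted p = 1.69e-05). TWIST1, a repressor of E-cadherin, stood at 0.215 and 0.337 CPM in ZR-75-30 and 12.9 and 18.6 CPM in BT474 (-5.86 ± 0.39, adjusted p = 3.62e-06). In the list of cadherins and regulators of epithelial-mesenchymal transition, 3 of 19 tested genes were called higher and 8 lower, with a median of -0.24. For the cadherin list, leaving out 1 library gave 0 to 3 higher (fewer without ZR-75-30 replicate 1 or either BT474 library), 5 to 6 lower (fewer without ZR-75-30 replicate 2 or BT474 replicate 2) and a median of -0.82 to 0.19 (lower without ZR-75-30 replicate 1 or BT474 replicate 2, higher without ZR-75-30 replicate 2), and the 4 libraries alone gave 1 higher and 7 lower. FN1, fibronectin, was 1 of the 3, with 47.8 and 12.2 CPM against 2.82 and 2.83 (3.41 ± 0.92, adjusted p = 0.0151), and its call was lost without ZR-75-30 replicate 1 (0.0999), without BT474 replicate 1 (0.0937) and without BT474 replicate 2 (0.0927), in a range of 0.000188 to 0.0999 over all alternatives.

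Of 15 tested genes of desmosomes and gap junctions 6 were lower and 3 higher, with a median of -0.96. For cell junctions, leaving out 1 library gave 1 to 3 higher (fewer without ZR-75-30 replicate 2 or BT474 replicate 1), 4 lower and a median of -1.56 to -0.40 (lower without ZR-75-30 replicate 1, higher without ZR-75-30 replicate 2). DSC2, desmocollin, stood at 96.7 and 102 CPM in BT474 and 5.34 and 3.28 CPM in ZR-75-30 (-4.52 ± 0.52, adjusted p = 0.000105). JUP, plakoglobin, stood at 825 and 830.3 CPM in BT474 and 342 and 465 CPM in ZR-75-30 (-1.04 ± 0.21, adjusted p = 0.00296), with the call lost with the 4 libraries alone (0.0522), in a range of 1.24e-07 to 0.09 over all alternatives. PKP1, plakophilin, had 0 and 0.0963 CPM in ZR-75-30 and 39.5 and 39.5 CPM in BT474, so BT474 was 1145-fold higher (95% interval for counting error 317 to 9461, adjusted p = 0.00152). GJB2, the gap junction protein connexin 26, was higher in ZR-75-30, with 23.3 and 63.4 CPM against 1.77 and 2.27 (4.42 ± 0.44, adjusted p = 4.38e-05). Of 20 tested tight junction genes 4 were called higher and 3 lower (35%, against 35.0% of all genes), with a median of 0.11. For tight junctions, leaving out 1 library gave 3 to 4 higher, 3 to 4 lower and a median of 0.06 to 0.33 (lower without ZR-75-30 replicate 1, higher without ZR-75-30 replicate 2). CLDN4, claudin 4, stood at 1054 and 1638 CPM in ZR-75-30 and 592 and 583 CPM in BT474 (1.20 ± 0.23, adjusted p = 0.0025), with the call lost with the 4 libraries alone (0.0523), in a range of 1.39e-06 to 0.0791 over all alternatives. F11R, junctional adhesion molecule A, stood at 242 and 332 CPM in ZR-75-30 and 109.9 and 114 CPM in BT474 (1.36 ± 0.25, adjusted p = 0.00172). CLDN8 was lower, with 0.215 and 0 CPM against 6.54 and 8.22 (-5.81 ± 0.68, adjusted p = 0.000114).

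The keratins of simple epithelium were high in both lines and not called. KRT8 stood at 1931 and 3014 CPM in ZR-75-30 and 3841 and 3118 CPM in BT474 (-0.49 ± 0.35, adjusted p = 0.298), KRT18 at 946 and 2061 CPM in ZR-75-30 and 819 and 622 CPM in BT474 (1.06 ± 0.40, adjusted p = 0.0607) and KRT19 at 1472 and 2869 CPM in ZR-75-30 and 2678 and 2143 CPM in BT474 (-0.15 ± 0.45, adjusted p = 0.82). In each of these 3 genes, the ZR-75-30 library with the high mitochondrial share held the larger one. Of 15 tested keratins 5 were called higher and 3 lower, with a median of 0.66. For keratins, leaving out 1 library gave 3 to 5 higher (fewer without BT474 replicate 2), 2 lower and a median of -0.43 to 1.03 (lower without ZR-75-30 replicate 2 or BT474 replicate 2, higher without BT474 replicate 1). KRT4, a keratin of stratified mucosa, stood at 267 and 182 CPM in ZR-75-30 and 7.52 and 1.99 CPM in BT474 (5.56 ± 0.99, adjusted p = 0.00208). The hair-type keratin KRT81, which many breast cancer lines make, stood at 10.8 and 15.2 CPM in ZR-75-30 and 0.442 and 0.162 CPM in BT474 (5.41 ± 0.94, adjusted p = 0.00135), and KRT23 at 18 and 9.3 CPM in ZR-75-30 and 0.0931 and 0.0463 CPM in BT474 (7.55 ± 1.31, adjusted p = 0.00136). KRT7 was lower, at 467 and 579 CPM against 1441 and 973 (-1.21 ± 0.24, adjusted p = 0.00308), with the call lost with the 4 libraries alone (0.0508), in a range of 8.02e-06 to 0.0845 over all alternatives.

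Several secretoglobins and other secreted proteins were far higher in ZR-75-30. SCGB2A2, mammaglobin A, a breast-restricted secreted protein, stood at 11179.7 and 17168 CPM in ZR-75-30 and 37.5 and 29.2 CPM in BT474 (8.73 ± 0.55, adjusted p = 2.21e-05), and the HCC1806 and CAL148 monolayers had at most 0.0468 CPM. Per length it reached 9389 ± 2953 FPKM (SD, n = 2) in ZR-75-30, above ERBB2 at 857 ± 38.5. SCGB1D2, lipophilin B, which pairs with mammaglobin, stood at 1321 and 3058 CPM in ZR-75-30 and 12.1 and 17.9 CPM in BT474 (7.19 ± 0.58, adjusted p = 3.73e-05), and SCGB2A1, mammaglobin B, at 126 and 374 CPM in ZR-75-30 and 0.978 and 0.509 CPM in BT474 (8.39 ± 0.83, adjusted p = 0.00011). APOD, a lipocalin of apocrine secretion, had 307 and 264 CPM in ZR-75-30 and 0 and 0.0463 CPM in BT474. By summed counts ZR-75-30 was 12568-fold higher (95% interval for counting error 3479 to 103786, adjusted p = 9.45e-06). BT474 had other secreted products. TCN1, which carries vitamin B12, had 0 counts in ZR-75-30 and 749 and 1241 CPM in BT474, at least 19254-fold lower (adjusted p = 1.79e-05), and the BT474 spheroids held 4578 to 6319 CPM. MUCL1, small breast epithelial mucin, stood at 163 and 89.7 CPM in BT474 and 5.26 and 3.47 CPM in ZR-75-30 (-4.85 ± 0.61, adjusted p = 0.000274). PIP, the prolactin-induced apocrine protein, was not called, at 11.6 and 24.2 CPM in ZR-75-30 and 9.87 and 7.6 CPM in BT474 (1.03 ± 0.61, adjusted p = 0.227). Of 18 tested apocrine and milk genes 7 were higher and 4 lower, with a median of 0.77. For apocrine genes, leaving out 1 library gave 5 to 8 higher, 3 lower and a median of 0.61 to 0.81.

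Mucins divided by family member. The gel-forming mucins MUC6 and MUC5B belonged to BT474: MUC6 stood at 229 and 210.4 CPM in BT474 and 0.107 and 0.0482 CPM in ZR-75-30 (-11.29 ± 0.97, adjusted p = 1.74e-05) and MUC5B at 133 and 132 CPM in BT474 and 0.483 and 3.23 CPM in ZR-75-30 (-6.22 ± 0.78, adjusted p = 0.000176). MUC2, the intestinal gel-forming mucin, was higher in ZR-75-30, with 41.5 and 37.8 CPM against 0.512 and 0.208 (6.77 ± 1.47, adjusted p = 0.0049), and the call was lost without BT474 replicate 2 (0.0564), in a range of 1.53e-08 to 0.0574 over all alternatives. The membrane mucin MUC1 stood at 177 and 625 CPM in ZR-75-30 and 22.7 and 26.7 CPM in BT474 (4.02 ± 1.00, adjusted p = 0.00996), with the call lost without ZR-75-30 replicate 2 (0.0657), without BT474 replicate 1 (0.0796) and without BT474 replicate 2 (0.0685), in a range of 3.94e-05 to 0.083 over all alternatives. CEACAM5 and CEACAM6 of the carcinoembryonic family were higher in ZR-75-30. CEACAM6 stood at 501 and 1238 CPM in ZR-75-30 and 47.9 and 27.4 CPM in BT474 (4.53 ± 0.73, adjusted p = 0.000878) and CEACAM5 at 46.9 and 222 CPM in ZR-75-30 and 5.07 and 5.98 CPM in BT474 (4.60 ± 0.81, adjusted p = 0.00154). Of 19 tested mucin and CEACAM genes 7 were higher and 3 lower, with a median of 0.67. For mucins, leaving out 1 library gave 2 to 6 higher (fewer without ZR-75-30 replicate 2 or either BT474 library), 2 to 3 lower and a median of 0.25 to 1.02 (lower without ZR-75-30 replicate 2, higher without ZR-75-30 replicate 1).

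HOX genes, which encode position along the body axis, gave the 2 lines different codes. In the HOX list 15 of 23 tested genes were called higher in ZR-75-30 and 3 lower, with a median of 1.87. For HOX genes, leaving out 1 library gave 8 to 15 higher (fewer without either BT474 library), 3 lower and a median of 1.51 to 2.16. The contrast was sharpest within the HOXB cluster on chromosome 17. HOXB2 stood at 658 and 842 CPM in ZR-75-30 and 0.163 and 0.116 CPM in BT474 (12.36 ± 0.97, adjusted p = 9.02e-06), HOXB3 at 115 and 81.8 CPM in ZR-75-30 and 0.14 and 0.0463 CPM in BT474 (10.00 ± 0.50, adjusted p = 5.48e-07) and HOXB4 at 117 and 178 CPM in ZR-75-30 and 0 and 0.139 CPM in BT474 (10.98 ± 1.03, adjusted p = 2.99e-05). HOXB13, at the other end of the cluster and known from prostate and breast cancer, had 0 counts in ZR-75-30 and 126 and 116 CPM in BT474, at least 2346-fold lower (adjusted p = 2.55e-05). HOXB2 (chr17:48540894-48544989 on GRCh38) and HOXB13 (chr17:48724763-48729178) are on the same strand. The other lines held HOXB2 at 9.4 to 104 CPM and HOXB13 at 3.53 to 38 CPM, so each line of the pair had little or none of a gene that both other lines had. In the HOXD cluster, HOXD9 had 0 counts in ZR-75-30 and 4.31 and 4.4 CPM in BT474, at least 84.2-fold lower (adjusted p = 1.36e-05). In the HOXC cluster, HOXC12 stood at 253 and 276 CPM in ZR-75-30 and 8.61 and 10.4 CPM in BT474 (4.80 ± 0.24, adjusted p = 1.15e-06).

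**Figure D3:**
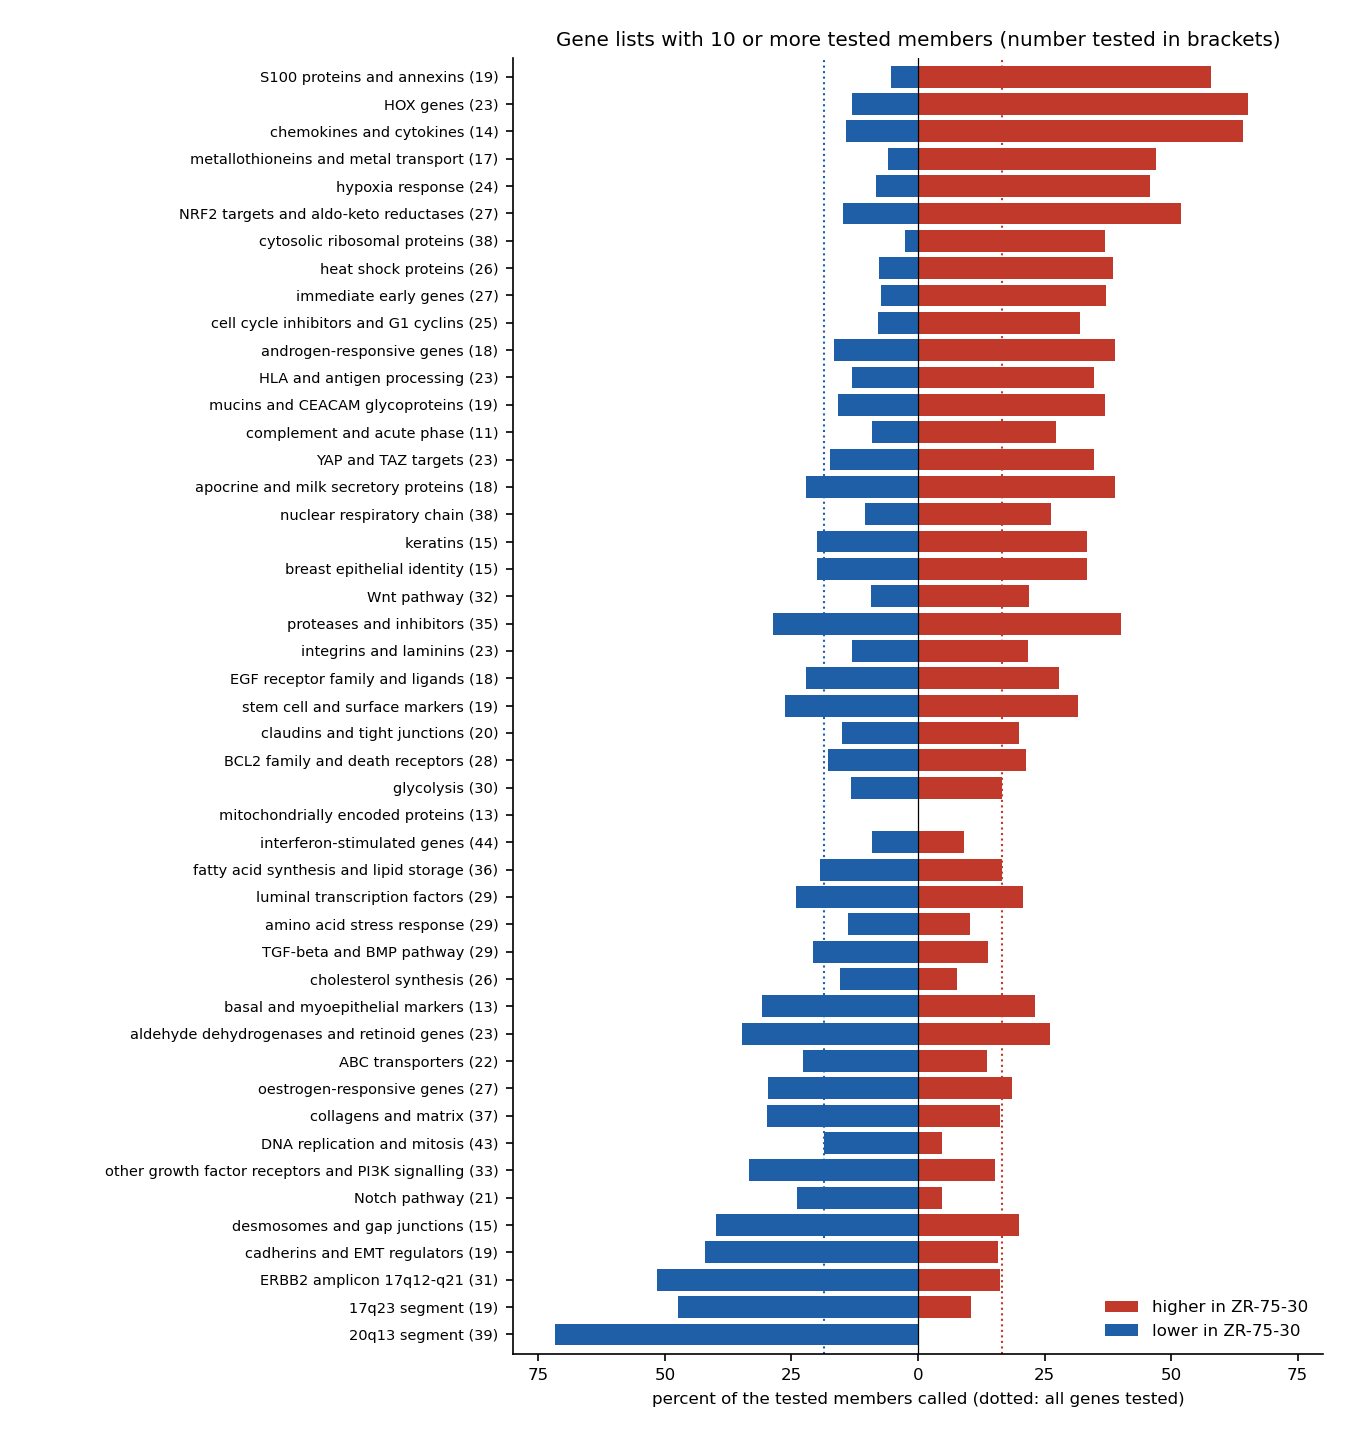
Percent of the tested members of each gene list called higher (right) and lower (left) in ZR-75-30, for lists with 10 or more tested members; dotted lines mark the 16.5% and 18.5% of all tested genes. HOX genes and chemokines reach furthest to the right, and the 20q13 segment and the region around ERBB2 furthest to the left.

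Metallothioneins, small proteins that bind zinc, copper and cadmium and are induced by these metals, included MT2A, MT1E and MT1X among the genes higher in ZR-75-30. MT2A stood at 237 and 221 CPM in ZR-75-30 and 37 and 14.5 CPM in BT474 (3.15 ± 0.51, adjusted p = 0.000922). MT1E had 0 counts in BT474 and 18 and 24.6 CPM in ZR-75-30, at least 585-fold higher (adjusted p = 0.000242). MT1X was low, at 2.07 and 5.44 CPM in ZR-75-30 and 0.675 and 0.394 CPM in BT474 (2.80 ± 0.70, adjusted p = 0.0104), and its call was lost without ZR-75-30 replicate 2 (0.0763) and without BT474 replicate 2 (0.0897), in a range of 0.000251 to 0.0897 over all alternatives. These genes are near-identical copies, so reads shared between them may be counted for the wrong copy or not at all. SLC39A4, a zinc importer of the plasma membrane, stood at 106 and 219.7 CPM in ZR-75-30 and 1.12 and 0.556 CPM in BT474 (7.60 ± 0.58, adjusted p = 8.36e-06). SLC39A6, a zinc transporter that responds to oestrogen, was lower in ZR-75-30, at 141 and 98.9 CPM against 264 and 352 (-1.36 ± 0.40, adjusted p = 0.0216), with the call lost without ZR-75-30 replicate 2 (0.132) and without BT474 replicate 2 (0.121), in a range of 0.000228 to 0.142 over all alternatives. Of 17 tested genes for metal binding and transport 8 were higher and 1 lower, with a median of 0.87. For metal genes, leaving out 1 library gave 6 to 8 higher, 0 to 1 lower and a median of 0.69 to 1.57 (higher without ZR-75-30 replicate 2 or BT474 replicate 1).

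Metal induction of these genes is known to run through short metal response elements that bind the factor MTF1. The 250 bases before the starts of MT2A and MT1X, which moved together between the lines, are shown from the RefSeq table of build GRCh38.p14, both on the plus strand, with matches to the core letters TGCACNC or TGCGCNC on either strand in capitals. The MT2A stretch is chr16:56608334-56608583 and the MT1X stretch chr16:56682220-56682469. MT2A held 7 matches and MT1X 4. Over 35116 promoters of the same length, 24.8% held at least 1 match and 1.58% held 3 or more. A match is a run of letters and says nothing of binding in these cells.
MT2A: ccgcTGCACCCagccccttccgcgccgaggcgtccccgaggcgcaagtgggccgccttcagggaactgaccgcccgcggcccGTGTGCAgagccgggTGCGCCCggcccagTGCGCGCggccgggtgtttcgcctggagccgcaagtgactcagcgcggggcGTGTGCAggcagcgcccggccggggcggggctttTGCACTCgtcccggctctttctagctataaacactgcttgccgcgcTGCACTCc
MT1X: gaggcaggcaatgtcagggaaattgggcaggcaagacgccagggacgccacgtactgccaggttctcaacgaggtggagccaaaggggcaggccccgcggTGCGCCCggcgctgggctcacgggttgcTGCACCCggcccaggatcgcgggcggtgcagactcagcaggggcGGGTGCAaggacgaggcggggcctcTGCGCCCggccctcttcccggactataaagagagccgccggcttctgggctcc

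Antigen presentation, chemokine and interferon genes did not move as a block. HLA-C, a class I molecule, was high in both and not called, at 389 and 682 CPM in ZR-75-30 and 412 and 325 CPM in BT474 (0.54 ± 0.68, adjusted p = 0.574). TAP1, the transporter that supplies peptides to class I molecules, was lower in ZR-75-30, with 3.19 and 4.09 CPM against 32.4 and 30.2 (-3.11 ± 0.21, adjusted p = 3.74e-06). Class I genes are highly variable between people, and reads of alleles unlike the reference may go uncounted. Of 23 tested genes for antigen processing 8 were higher and 3 lower, with a median of 0.82. For antigen processing, leaving out 1 library gave 3 to 8 higher (fewer without either BT474 library), 2 to 3 lower and a median of 0.52 to 1.16 (lower without ZR-75-30 replicate 2). Of 14 tested chemokines and cytokines 9 were higher and 2 lower, with a median of 2.55. For chemokines, leaving out 1 library gave 4 to 7 higher (fewer without ZR-75-30 replicate 2 or either BT474 library), 1 lower and a median of 2.17 to 2.39. IL6ST, the shared receptor chain gp130, stood at 277 and 119 CPM in ZR-75-30 and 20.4 and 30.9 CPM in BT474 (2.95 ± 0.48, adjusted p = 0.000914). CCL28, a mucosal chemokine, stood at 6.41 and 6.98 CPM in ZR-75-30 and 0.186 and 0.463 CPM in BT474 (4.35 ± 0.80, adjusted p = 0.00185), and CSF1, which sustains macrophages, at 6.36 and 4.72 CPM in ZR-75-30 and 0.372 and 1.04 CPM in BT474 (2.97 ± 0.60, adjusted p = 0.00346). Of 44 tested interferon-stimulated genes 4 were higher and 4 lower, with a median of -0.06, below the share of all genes in both directions. For interferon genes, leaving out 1 library gave 3 to 4 higher, 2 to 5 lower (fewer without BT474 replicate 2) and a median of -0.26 to 0.19 (lower without BT474 replicate 1 or either ZR-75-30 library, higher without BT474 replicate 2). SAMD9L had 12.6 and 4.67 CPM in ZR-75-30 and 0 and 0.0463 CPM in BT474, 422-fold higher (95% interval for counting error 116 to 3489, adjusted p = 9.41e-05). MX2, a dynamin-like antiviral protein, was lower, with 1.74 and 1.25 CPM against 34.4 and 26.7 (-4.33 ± 0.59, adjusted p = 0.000307).

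Metabolic genes went in both directions. PSAT1, the transaminase of serine synthesis, had 0 counts in ZR-75-30 and 94.1 and 120.1 CPM in BT474, at least 2073-fold lower (adjusted p = 0.0001), while HCC1806 and CAL148 held 31 to 351 CPM. PSPH, the next enzyme, was lower with 12.8 and 10.8 CPM against 56.1 and 56.9 (-2.26 ± 0.50, adjusted p = 0.00533). PHGDH, the first enzyme, stood at 41.1 and 42.9 CPM in ZR-75-30 and 154 and 144 CPM in BT474 (-1.83 ± 0.59, adjusted p = 0.033), and its call was lost without ZR-75-30 replicate 1 (0.106), without ZR-75-30 replicate 2 (0.13), without BT474 replicate 1 (0.106) and without BT474 replicate 2 (0.0902), in a range of 0.00312 to 0.156 over all alternatives. SLC7A5, a leucine transporter, was lower in ZR-75-30, at 65.6 and 53.8 CPM against 332 and 625 (-3.00 ± 0.59, adjusted p = 0.00278). Over the amino acid stress list, 3 of 29 tested genes were higher and 4 lower (24.1%, against 35.0% of all genes), with a median of 0.28. For amino acid stress, leaving out 1 library gave 1 to 3 higher (fewer without either BT474 library), 3 to 4 lower and a median of 0.05 to 0.54 (lower without ZR-75-30 replicate 2 or BT474 replicate 1, higher without ZR-75-30 replicate 1).

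In lipid metabolism, FADS1, the delta-5 desaturase of long-chain fatty acids, stood at 1.34 and 0.963 CPM in ZR-75-30 and 128 and 145 CPM in BT474 (-6.86 ± 0.31, adjusted p = 3.02e-07). The fatty acid chaperone FABP5 had 0 counts in ZR-75-30 and 2.75 and 5.7 CPM in BT474, at least 81.7-fold lower (adjusted p = 0.000498). ACACB, the mitochondrial acetyl-CoA carboxylase, was higher in ZR-75-30, with 23.4 and 35.1 CPM against 3.00 and 3.22 (3.23 ± 0.48, adjusted p = 0.000506). Of 36 tested genes for fatty acids and lipid storage 6 were higher and 7 lower (36.1%, against 35.0% of all genes), with a median of -0.18. For fatty acids, leaving out 1 library gave 3 to 5 higher (fewer without BT474 replicate 1), 5 to 10 lower and a median of -0.66 to 0.01 (lower without ZR-75-30 replicate 1 or BT474 replicate 1, higher without ZR-75-30 replicate 2 or BT474 replicate 2). Of 26 cholesterol synthesis genes 2 were higher and 4 lower (23.1%, against 35.0% of all genes), with a median of -0.26. For cholesterol synthesis, leaving out 1 library gave 1 to 3 higher, 1 to 3 lower (fewer without ZR-75-30 replicate 1 or BT474 replicate 2) and a median of -0.55 to 0.09 (lower without ZR-75-30 replicate 1 or BT474 replicate 1, higher without ZR-75-30 replicate 2 or BT474 replicate 2). FBP1, which runs glycolysis backwards, stood at 126 and 122 CPM in BT474 and 4.96 and 2.36 CPM in ZR-75-30 (-5.07 ± 0.82, adjusted p = 0.000896), and SLC16A3, the lactate exporter MCT4, at 9.87 and 4.96 CPM in BT474 and 0.429 and 0.144 CPM in ZR-75-30 (-4.56 ± 0.55, adjusted p = 0.000133). Of 30 glycolysis genes 5 were higher and 4 lower (30%, against 35.0% of all genes), with a median of 0.14. ALDOC, PFKFB3, GAPDH and SLC2A1 were among the higher ones. For glycolysis, leaving out 1 library gave 1 to 4 higher (fewer without either BT474 library), 3 to 5 lower and a median of 0.15 to 0.27 (higher without BT474 replicate 1), and the 4 libraries alone gave 2 higher and 3 lower.

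Genes of the hypoxia and oxidant responses were more often higher in ZR-75-30. Of 24 hypoxia genes 11 were higher and 2 lower, with a median of 0.71. For hypoxia genes, leaving out 1 library gave 7 to 10 higher (fewer without BT474 replicate 1), 0 to 1 lower (fewer without ZR-75-30 replicate 2 or BT474 replicate 2) and a median of 0.50 to 1.00. MXI1, an antagonist of MYC, stood at 47.7 and 60.7 CPM in ZR-75-30 and 6.89 and 8.89 CPM in BT474 (2.78 ± 0.44, adjusted p = 0.0008), and DDIT4, an inhibitor of mTORC1, at 219 and 78.5 CPM in ZR-75-30 and 37.7 and 33.2 CPM in BT474 (2.07 ± 0.42, adjusted p = 0.0035). Of 27 tested NRF2 targets and aldo-keto reductases 14 were higher and 4 lower, with a median of 0.86. For NRF2 targets, leaving out 1 library gave 8 to 11 higher (fewer without either BT474 library), 2 to 3 lower (fewer without BT474 replicate 2 or either ZR-75-30 library) and a median of 0.82 to 1.05, and the 4 libraries alone gave 11 higher and 2 lower. GSTP1, a glutathione transferase that is often silenced in oestrogen receptor-positive breast cancer, stood at 15.9 and 55.8 CPM in ZR-75-30 and 0.116 and 0 CPM in BT474 (9.19 ± 0.96, adjusted p = 5.91e-05), below the 277 to 1636 CPM of the other lines. GSTM3 stood at 289 and 524 CPM in ZR-75-30 and 9.92 and 9.63 CPM in BT474 (5.38 ± 0.39, adjusted p = 6.16e-06), and UGDH, which makes UDP-glucuronic acid, at 985 and 769 CPM in ZR-75-30 and 96.6 and 92 CPM in BT474 (3.22 ± 0.60, adjusted p = 0.002). GSTM4 was lower, at 1.23 and 2.46 CPM against 18 and 21.5 (-3.44 ± 0.38, adjusted p = 7.97e-05), and shares sequence with GSTM3 and other copies.

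Immediate early genes, which growth factors and handling switch on within minutes, were higher in ZR-75-30 for 10 of 27 tested members and lower for 2, with a median of 1.05. For immediate early genes, leaving out 1 library gave 6 to 10 higher (fewer without BT474 replicate 1), 1 to 3 lower and a median of 0.89 to 1.59 (higher without ZR-75-30 replicate 1). EGR1 stood at 631 and 516 CPM in ZR-75-30 and 3.12 and 5.53 CPM in BT474 (7.05 ± 1.53, adjusted p = 0.0049), with the call lost without BT474 replicate 1 (0.0538), in a range of 1.57e-09 to 0.0556 over all alternatives. FOS stood at 92.3 and 283 CPM in ZR-75-30 and 0.698 and 2.36 CPM in BT474 (6.93 ± 1.22, adjusted p = 0.00151), and ZFP36, which destabilises cytokine transcripts, at 172 and 310.1 CPM in ZR-75-30 and 27 and 29 CPM in BT474 (3.11 ± 0.43, adjusted p = 0.00032). ETV5, an ETS factor downstream of ERK, had 0.0537 and 0 CPM in ZR-75-30 and 5.47 and 2.83 CPM in BT474. By summed counts BT474 was 120.3-fold higher (95% interval for counting error 33 to 997, adjusted p = 0.000114). CDKN1A, the inhibitor p21, stood at 193 and 444 CPM in ZR-75-30 and 30.6 and 36.1 CPM in BT474 (3.25 ± 0.44, adjusted p = 0.000284), and BTG2, another p53 target, at 439 and 525 CPM in ZR-75-30 and 65.4 and 49.2 CPM in BT474 (3.07 ± 0.48, adjusted p = 0.000703). GDF15, a stress cytokine, stood at 224 and 976 CPM in ZR-75-30 and 2.37 and 6.32 CPM in BT474 (7.11 ± 1.89, adjusted p = 0.0141), with the call lost without ZR-75-30 replicate 2 (0.0528), without BT474 replicate 1 (0.107) and without BT474 replicate 2 (0.0722), in a range of 1.13e-05 to 0.107 over all alternatives. Heat shock genes included HSPA1A at 682 and 893 CPM in ZR-75-30 and 103 and 65.7 CPM in BT474 (3.22 ± 0.26, adjusted p = 9.02e-06), HSPA2 at 225 and 274 CPM in ZR-75-30 and 2.21 and 2.41 CPM in BT474 (6.75 ± 0.41, adjusted p = 2.44e-06) and HSPB8, a small chaperone, at 0.0537 and 0.289 CPM against 132 and 292 (-10.47 ± 0.75, adjusted p = 5.94e-06). Of 26 heat shock genes 10 were higher and 2 lower, with a median of 0.16. For heat shock genes, leaving out 1 library gave 5 to 9 higher (fewer without either BT474 library), 1 to 3 lower and a median of 0.18 to 0.35 (higher without ZR-75-30 replicate 1), and the 4 libraries alone gave 6 higher and 1 lower.

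MKI67, the marker of cycling cells, overlapped, with 269.9 and 107 CPM in ZR-75-30 and 114 and 142 CPM in BT474 (0.56 ± 0.82, adjusted p = 0.63). Of 43 genes of DNA replication and mitosis 2 were higher and 8 lower, with a median of -0.45, against 16.5% and 18.5% of all genes. For replication and mitosis, leaving out 1 library gave 0 to 3 higher (fewer without BT474 replicate 1), 4 to 11 lower (fewer without ZR-75-30 replicate 2 or either BT474 library) and a median of -0.82 to -0.17 (lower without ZR-75-30 replicate 1, higher without ZR-75-30 replicate 2), and the 4 libraries alone gave 0 higher and 5 lower. MCM7, a helicase subunit, was lower in ZR-75-30, with 182 and 138 CPM against 460.1 and 486 (-1.56 ± 0.28, adjusted p = 0.00168). Of 25 cell cycle inhibitors and G1 cyclins 8 were higher and 2 lower, with a median of 0.26. For cell cycle inhibitors, leaving out 1 library gave 5 to 7 higher (fewer without ZR-75-30 replicate 2 or either BT474 library), 0 to 1 lower (fewer without ZR-75-30 replicate 2 or either BT474 library) and a median of 0.28 to 0.41 (higher without BT474 replicate 2).

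Several groups moved with the ZR-75-30 library of high mitochondrial share, and its part in their counts was not tested beyond leaving it out. Of the 13 mitochondrially encoded proteins none was called, with a median of 3.11. For mitochondrial proteins, leaving out 1 library gave 0 to 11 higher (more without ZR-75-30 replicate 1), 0 lower and a median of -0.16 to 4.03 (lower without ZR-75-30 replicate 2). MT-CO1, a subunit of cytochrome oxidase, stood at 5142 and 56836 CPM in ZR-75-30 and 3817 and 4239 CPM in BT474 (2.94 ± 1.18, adjusted p = 0.0745). Of 38 cytosolic ribosomal proteins 14 were higher and 1 lower, with a median of 1.31. For ribosomal proteins, leaving out 1 library gave 3 to 27 higher (fewer without ZR-75-30 replicate 2 or either BT474 library, more without ZR-75-30 replicate 1), 1 lower and a median of 0.51 to 1.78 (lower without ZR-75-30 replicate 2). RPL5 stood at 968 and 1624 CPM in ZR-75-30 and 345 and 332 CPM in BT474 (1.94 ± 0.35, adjusted p = 0.00178). Of 38 nuclear-encoded subunits of the respiratory chain 10 were higher and 4 lower (36.8%, against 35.0% of all genes), with a median of 0.45. For respiratory subunits, leaving out 1 library gave 4 to 16 higher (fewer without ZR-75-30 replicate 2 or either BT474 library, more without ZR-75-30 replicate 1), 2 to 5 lower (fewer without ZR-75-30 replicate 1 or BT474 replicate 2) and a median of -0.04 to 0.82 (lower without ZR-75-30 replicate 2, higher without ZR-75-30 replicate 1), and the 4 libraries alone gave 3 higher and 2 lower. SDHA, a subunit of succinate dehydrogenase on chromosome 5p, was lower with 91.3 and 121 CPM against 449 and 409 (-2.02 ± 0.30, adjusted p = 0.000514). Of 19 S100 proteins and annexins 11 were higher and 1 lower, with a median of 1.88. For S100 proteins, leaving out 1 library gave 6 to 13 higher (fewer without ZR-75-30 replicate 2 or either BT474 library), 0 to 1 lower and a median of 1.31 to 2.53. S100A6 stood at 2114 and 10008 CPM in ZR-75-30 and 304 and 393 CPM in BT474 (4.12 ± 0.88, adjusted p = 0.00443), and ANXA2, a membrane-binding annexin with closer replicates, at 1956 and 2384 CPM in ZR-75-30 and 409.5 and 397 CPM in BT474 (2.43 ± 0.29, adjusted p = 0.000122).

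Several targets of YAP and TAZ, the effectors of the Hippo pathway, were higher in ZR-75-30 while YAP1 was lower. CTGF, a matricellular protein, stood at 61.9 and 44.4 CPM in ZR-75-30 and 0.279 and 0.0463 CPM in BT474 (8.32 ± 0.86, adjusted p = 8.4e-05), CYR61, its relative, at 233 and 209 CPM in ZR-75-30 and 15.5 and 15.4 CPM in BT474 (3.84 ± 0.50, adjusted p = 0.000221) and F3, tissue factor, at 20.8 and 24.8 CPM in ZR-75-30 and 0.978 and 0.857 CPM in BT474 (4.63 ± 0.90, adjusted p = 0.00266). YAP1 stood at 73.8 and 42.9 CPM in ZR-75-30 and 340.4 and 432 CPM in BT474 (-2.73 ± 0.50, adjusted p = 0.00197). Of 23 tested genes of the list 8 were higher and 4 lower, with a median of 0.29. For Hippo genes, leaving out 1 library gave 4 to 6 higher (fewer without ZR-75-30 replicate 2 or either BT474 library), 4 lower and a median of -0.38 to 0.72 (lower without ZR-75-30 replicate 1, higher without ZR-75-30 replicate 2), and the 4 libraries alone gave 5 higher and 4 lower. In the Notch list 1 of 21 was higher and 5 lower (28.6%, against 35.0% of all genes), with a median of -0.61. For the Notch list, leaving out 1 library gave 0 to 1 higher, 2 to 5 lower (fewer without ZR-75-30 replicate 2 or BT474 replicate 1) and a median of -0.89 to -0.38 (higher without ZR-75-30 replicate 2). HEY2, a Notch target, had 0 counts in ZR-75-30 and 16.5 and 25.5 CPM in BT474, at least 406-fold lower (adjusted p = 0.00145). TGFBR2, the type II receptor of TGF-beta, had 0 counts in ZR-75-30 and 11.1 and 8.34 CPM in BT474, at least 188-fold lower (adjusted p = 0.000308). SMAD3, which carries its signal, was higher in ZR-75-30, with 80.6 and 59.4 CPM against 24.4 and 22.2 (1.59 ± 0.23, adjusted p = 0.00039). In the Wnt list 7 of 32 were higher and 3 lower (31%, against 35.0% of all genes), with a median of 0.10. WNT5A, a ligand of the non-canonical branch, stood at 9.79 and 2.7 CPM in ZR-75-30 and 0.233 and 0.0926 CPM in BT474 (5.24 ± 0.81, adjusted p = 0.000658). For the Wnt list, leaving out 1 library gave 2 to 6 higher (fewer without ZR-75-30 replicate 1 or either BT474 library), 2 to 3 lower and a median of -0.05 to 0.36 (lower without ZR-75-30 replicate 1 or BT474 replicate 2, higher without BT474 replicate 1).

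Of 37 tested collagen and matrix genes 11 were lower and 6 higher in ZR-75-30, with a median of -1.31. For matrix genes, leaving out 1 library gave 2 to 5 higher (fewer without either BT474 library), 5 to 9 lower (fewer without ZR-75-30 replicate 2 or either BT474 library) and a median of -1.16 to -0.41 (higher without BT474 replicate 1). COL12A1, a fibril-associated collagen, stood at 0.107 and 0 CPM in ZR-75-30 and 161 and 290.3 CPM in BT474 (-11.65 ± 1.04, adjusted p = 2.23e-05). The collagen VI chains COL6A1 and COL6A2 both had 0 counts in ZR-75-30. COL6A1 had 19.1 and 17.7 CPM in BT474, at least 356-fold lower in ZR-75-30 (adjusted p = 8.86e-07), and COL6A2 had 7.56 and 6.9 CPM, at least 139.9-fold lower (adjusted p = 0.000102). LOXL1, which crosslinks elastin, was higher in ZR-75-30, with 109 and 148 CPM against 4.31 and 2.89 (5.16 ± 0.78, adjusted p = 0.000572). CTSD, the lysosomal protease cathepsin D, stood at 789 and 1981 CPM in ZR-75-30 and 102 and 98.4 CPM in BT474 (3.79 ± 0.64, adjusted p = 0.0012). TIMP3, an inhibitor of metalloproteinases, stood at 8.83 and 141 CPM in ZR-75-30 and 0.14 and 0 CPM in BT474 (10.01 ± 1.60, adjusted p = 0.000844), with a wide gap between the ZR-75-30 libraries. Of 35 proteases and inhibitors 14 were higher and 10 lower, with a median of 0.86. For proteases, leaving out 1 library gave 8 to 15 higher (fewer without ZR-75-30 replicate 2 or either BT474 library), 8 to 9 lower and a median of 0.54 to 0.95 (lower without ZR-75-30 replicate 2). The integrin chain ITGA5, a fibronectin receptor, stood at 13.3 and 19 CPM in ZR-75-30 and 0.861 and 1.04 CPM in BT474 (4.08 ± 0.42, adjusted p = 5.21e-05), and LAMB2, a laminin chain, at 508 and 561 CPM in ZR-75-30 and 120.4 and 106 CPM in BT474 (2.24 ± 0.22, adjusted p = 3.7e-05). Of 23 tested integrins and laminins 5 were higher and 3 lower (34.8%, against 35.0% of all genes), with a median of -0.17. The lower ones were LAMC1, ITGA3 and LAMA5. For integrins and laminins, leaving out 1 library gave a median of -0.36 to 0.15 (lower without ZR-75-30 replicate 1, higher without ZR-75-30 replicate 2).

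Surface markers used to sort stem-like breast cancer cells differed 1 by 1. CD44, the hyaluronan receptor, stood at 101 and 50 CPM in ZR-75-30 and 13.3 and 13.5 CPM in BT474 (2.49 ± 0.54, adjusted p = 0.00503), and the BT474 spheroids held 42.4 to 51.9 CPM. CD24 was high in both lines and not called, at 2061 and 2524 CPM in ZR-75-30 and 1355 and 1716 CPM in BT474 (0.58 ± 0.27, adjusted p = 0.122). PROM1, CD133, stood at 214 and 169 CPM in ZR-75-30 and 1.23 and 1.2 CPM in BT474 (7.29 ± 0.91, adjusted p = 0.000174). ALDH1A3, an aldehyde dehydrogenase, stood at 16.4 and 4.53 CPM in ZR-75-30 and 3.56 and 2.66 CPM in BT474 (1.75 ± 0.60, adjusted p = 0.042), with the call lost without ZR-75-30 replicate 1 (0.48), without BT474 replicate 1 (0.119), without BT474 replicate 2 (0.199) and with the 4 libraries alone (0.112), in a range of 0.00638 to 0.48 over all alternatives. KLF4 was higher in ZR-75-30, with 95 and 164 CPM against 30.5 and 26.8 (2.18 ± 0.29, adjusted p = 0.000247), and SOX4 lower, with 100 and 64.9 CPM against 172 and 219 (-1.24 ± 0.23, adjusted p = 0.00172). Of 19 tested genes of the list 6 were higher and 5 lower, with a median of 0.42. For surface markers, leaving out 1 library gave 4 to 6 higher, 2 to 4 lower (fewer without BT474 replicate 2 or either ZR-75-30 library) and a median of -0.29 to 0.37 (lower without ZR-75-30 replicate 1).

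Among the 12 protein-coding genes with the lowest fold changes, all had 0 counts in both ZR-75-30 libraries. Beside TCN1, HOXB13, PSAT1 and IRS1, they included MXRA5, a matrix-remodelling protein with 231 and 239.8 CPM in BT474 (at least 4550.4-fold lower), SLC7A2, a transporter of cationic amino acids with 68.4 and 139 CPM (at least 2003-fold), DPYSL5 with 86.1 and 93.1 CPM (at least 1734-fold), and the homeobox gene IRX4 with 85.3 and 90.3 CPM (at least 1699-fold). TMEM178B with 67 and 80.01 CPM, PKIA, an inhibitor of protein kinase A, with 53.6 and 77.6 CPM, PRMT6 with 65.3 and 55 CPM and PBX3 with 48.2 and 55.9 CPM completed the 12. All 12 passed the count filter only through BT474 and were picked by fold change. Their direction was therefore fixed in advance, and their adjusted p-values add no support.

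At the other end stood CLEC3A, a secreted lectin first described in cartilage, with 855 and 722 CPM in ZR-75-30 and 0.0233 and 0 CPM in BT474. By summed counts ZR-75-30 was 69559.7-fold higher (95% interval for counting error 12484 to 2747520.0, adjusted p = 6.2e-06), and HCC1806 and CAL148 had 0 counts. TDRD1, a tudor protein of the germ line, had 139 and 77.3 CPM in ZR-75-30 and 0 counts in every other monolayer, at least 3359.9-fold higher than BT474 (adjusted p = 0.000635). TMCO1, a calcium channel of the endoplasmic reticulum that most cells make, had 229.7 and 289 CPM in ZR-75-30 and 0.0233 and 0 CPM in BT474, 21617-fold higher (95% interval for counting error 3879 to 853872, adjusted p = 9.13e-07). HCC1806 and CAL148 held TMCO1 at 54.3 to 186 CPM, and the BT474 spheroids at 0 to 0.0528 CPM. MYL9, a myosin light chain, had 18.7 and 93 CPM in ZR-75-30 and 0 counts in BT474, at least 1299-fold higher (adjusted p = 0.00391). TCEAL9, with 33.3 and 39.8 CPM, was at least 1023-fold higher, HAPLN1, a hyaluronan link protein with 31.6 and 26.1 CPM, at least 851-fold, and ARHGAP40, with 45.1 and 15.6 CPM, at least 993-fold. The genes with 0 counts in BT474 passed the count filter only through ZR-75-30, so their direction too was fixed in advance.

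**Figure D4:**
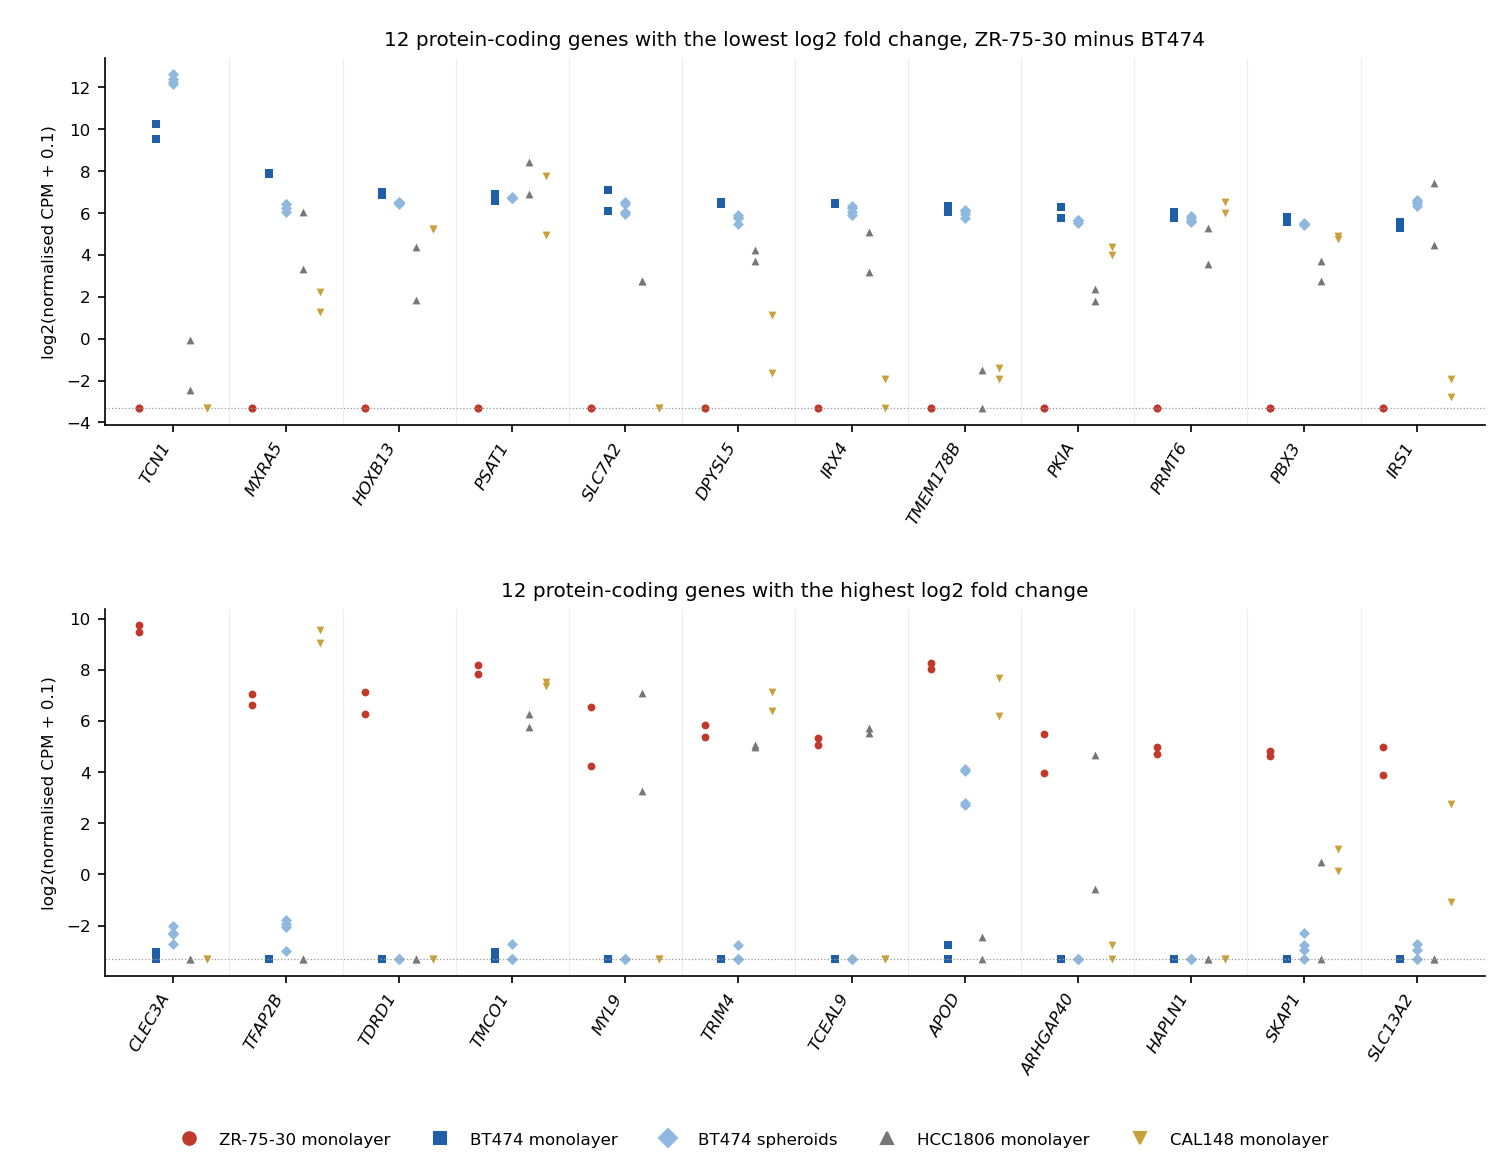
The 12 protein-coding genes with the lowest (top) and the 12 with the highest (bottom) log2 fold change, with log2(normalised CPM + 0.1) on the y axis and 1 point per library; the dotted line marks 0 CPM. The lowest genes sit on that line in both ZR-75-30 libraries, and TMCO1 and TRIM4 sit on or just above it in BT474 alone.

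A further rule, set after the values were seen, asked which genes had 0 counts in 1 line of the pair and at least 5 CPM in every library of the other 3 monolayer lines. It found 11 genes for ZR-75-30 and 3 for BT474. In ZR-75-30 they were PSAT1, PRMT6, PBX3, HMX1, B3GNT5, THNSL1, AGPS, ZNF558, BTBD11, COL6A2 and OSMR. AGPS, an enzyme of ether lipid synthesis, had 14.7 and 16.6 CPM in BT474, 99.1 and 297 in HCC1806 and 17.9 and 14.7 in CAL148. OSMR, the oncostatin M receptor, had 6.4 and 7.41 CPM in BT474. In BT474 they were TRIM4, IFT57 and SMIM20. TRIM4, a ubiquitin ligase, had 56.9 and 41.1 CPM in ZR-75-30, at least 1472-fold above BT474. The rule itself asked for 0 counts in 1 line, so the direction of all these genes was fixed in advance. IFT57, a protein of intraflagellar transport, had 17.1 and 11.9 CPM, and SMIM20, an assembly factor of cytochrome oxidase, 9.5 and 15 CPM. No read supports any of these genes in 2 libraries of the line, which allows up to 3 counts over them, or 0.0517 CPM in ZR-75-30 and 0.0348 CPM in BT474.

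Differences also ran along the chromosomes. In 13115 overlapping windows of 15 neighbouring tested genes, the median log2 fold change of a window had a median of -0.03, and 95% of the windows lay between -1.51 and 1.39. The highest window, on chromosome 6 from ENPP4 to TFAP2B (chr6:46129993-50847613), had a median of 3.96, with 10 of 15 genes called higher and 1 lower. Its rank depended on genes of low level. With 0.5 CPM added, the medians of the ZR-75-30 libraries over the BT474 mean were 2.25 and 2.26 there. The HOXB window below had 2.80 and 3.21 and the TNFAIP1 to SDF2 window 2.42 and 3.33. The chromosome 6 window holds ADGRF1, an adhesion G protein-coupled receptor with 25.1 and 30.8 CPM in ZR-75-30 and 0.0465 and 0 CPM in BT474, and also ADGRF4, its neighbour, which had 0 counts in ZR-75-30 and 0.745 and 0.973 CPM in BT474. A window at the HOXB cluster (chr17:47831627-48604912) had a median of 3.93, with 8 called higher and none lower. SKAP1, an adaptor of T cell signalling, lies in it and had 28.1 and 24.5 CPM in ZR-75-30 and 0 counts in BT474, at least 771-fold higher. Another stretch of chromosome 17, from TNFAIP1 to SDF2 (chr17:28335602-28662189), had a median of 3.15 with 13 called higher and none lower. SDF2, a protein of the endoplasmic reticulum, stood there at 599 and 1221 CPM in ZR-75-30 and 48.8 and 48.3 CPM in BT474 (4.23 ± 0.42, adjusted p = 3.76e-05), and SLC13A2, a citrate transporter, at 14.5 and 31.4 CPM against 0 counts. On chromosome 8 (chr8:132685007-141432454) 10 of 15 genes were higher, with a median of 2.36, among them DENND3 at 181 and 260.0 CPM in ZR-75-30 and 6.7 and 9.54 CPM in BT474 (4.76 ± 0.51, adjusted p = 6.96e-05). On chromosome 1 (chr1:150508062-151047720) 11 of 15 were higher, with a median of 2.10. BNIPL lies there, at 26.1 and 62.8 CPM in ZR-75-30 and 0.582 and 0.764 CPM in BT474 (6.04 ± 0.62, adjusted p = 4.98e-05).

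The lowest window was on chromosome 7 from CAV2 to FEZF1 (chr7:116287380-122310691), a stretch that holds MET, with a median of -4.86 and 10 of 15 genes called lower. CTTNBP2, a cortactin-binding protein, had 0 counts in ZR-75-30 and 5.21 and 6.53 CPM in BT474, at least 114-fold lower. Levels in this window were low, and with a minimum count of 50 the lowest median on the genome was -3.42. With 0.5 CPM added, the medians of the ZR-75-30 libraries against the BT474 mean were only -1.14 and -1.02 in this window. They were -2.22 and -2.20 in the chromosome 5 window and -3.60 and -2.66 in the window that holds ERBB2, both described next. At the tip of chromosome 5 (chr5:304176-1523977) 11 of 15 genes were lower, with a median of -3.42. LPCAT1, which remodels phosphatidylcholine, stood there at 546 and 559.7 CPM in BT474 and 39.3 and 57.2 CPM in ZR-75-30 (-3.52 ± 0.26, adjusted p = 6.2e-06), and TPPP, a tubulin-binding protein, at 25.7 and 18.7 CPM in BT474 and 0.456 and 0.0963 CPM in ZR-75-30 (-6.19 ± 0.53, adjusted p = 1.74e-05). The stretch from RPL19 to GSDMB (chr17:39200283-39919854), which contains ERBB2, had a median of -3.22 with 8 called lower and 3 higher. STAC2, in that stretch, stood at 91.6 and 95.9 CPM in BT474 and 0 and 0.385 CPM in ZR-75-30 (-9.22 ± 1.11, adjusted p = 0.000198). The remaining pair were on chromosome 20, at chr20:34363235-35280043 with a median of -2.82 and at chr20:54207847-57711536 with a median of -2.63. In each of them 13 of 15 genes were lower and none higher. MAP1LC3A, an autophagy protein, lies in the first of these and stood at 15.8 and 14.3 CPM in BT474 and 0.0537 and 0.53 CPM in ZR-75-30 (-5.86 ± 1.30, adjusted p = 0.00552). Copy number was not measured in these libraries.

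**Figure D5:**
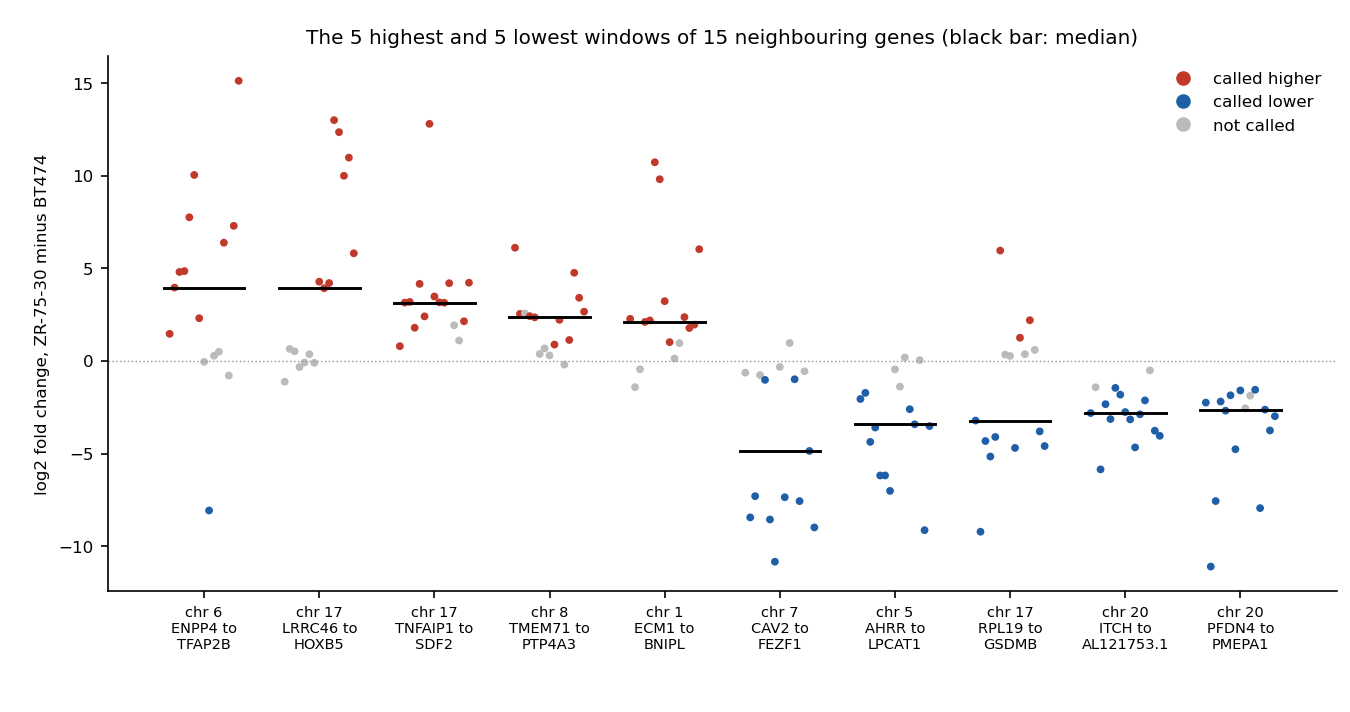
Log2 fold changes of the genes in the 5 highest and 5 lowest windows of 15 neighbouring tested genes, 1 point per gene, coloured by call, with a black bar at the window's median. Medians run from 3.96 on chromosome 6 to -4.86 on chromosome 7, and the window that holds ERBB2 contains genes called in both directions.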

How the data were processed

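Libraries of poly(A) RNA were sequenced as paired 150 bp reads on a NovaSeq X Plus, per the labels' protocols. Reads were aligned to GRCh38 with HISAT2 2.2.1 and counted per gene with featureCounts 2.0.6, per the submitters' processing notes; the strand setting and annotation release are not given in the sources used here, so overlapping and antisense genes cannot be told apart. The deposited values are raw counts and the authors' FPKM, of which FPKM was used only for levels between genes and as an alternative. All 16 libraries in 8 groups of 2 entered 1 fit (edgeR 4.0.16 quasi-likelihood, robust, trimmed-mean scaling, R 4.3.3), with genes kept at a minimum count of 10 and total of 15 in the 4 libraries compared. The samples were grouped by title. The members and the 51 gene lists (1523 matched symbols) were chosen with earlier results of these data known, and list counts stand beside those of all genes with no test.

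Named genes are a panel of 18 (some genes under this rule are not reported here), the 12 protein-coding called genes at each end with a mean of at least 5 CPM, up to 4 called per list and direction with a mean of at least 1 CPM, and up to 3 per window; other genes named beside them are their pathway partners, picked after their values were seen. On simulated data (16301 genes) the fit recovered 25% of 100 genes changed 4-fold, 1% of 100 changed 2-fold, and called 0 unchanged genes. Far fewer genes were changed there than were called in the data, and both lines were given the same spread. The recovered shares and the absence of false calls therefore do not carry over to these libraries. Depth ran from 29696358 to 72489002 counts per library. Placing genes at 0 counts at their bound changed the list medians by 0. Alternatives used DESeq2 1.42.0 and limma 3.58.1, the latter on log2(FPKM + 1). Gene positions follow the deposited count table.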

Additional observations from a re-analysis of the deposited data

How the results depend on the processing

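Against 2781 genes higher and 3123 lower, the 8 monolayer libraries alone gave 829 and 1017, and the fit without the HCC1806 monolayers gave 4177 and 4474. Leaving out 1 library gave 1389 to 2867 higher and 2067 to 3151 lower: without ZR-75-30 replicate 2, the library with the high mitochondrial share, 2013 and 2278 (without replicate 1, 2867 and 3151), without BT474 replicate 1, 1389 and 2069, and without BT474 replicate 2, 1393 and 2067. In these fits the lone library is assumed to vary like the other groups. The other settings stayed within 1.5 times: 1978 and 2237 with the 4 libraries alone, 2102 and 2173 with those libraries weighted by quality (limma voom, chosen after seeing the data), 3481 and 3758 with DESeq2, 2848 and 3075 with median-of-ratios scaling, 2747 and 3168 with mitochondrial genes removed, 2241 and 2913 with no count filter, 2460 and 2603 with a minimum count of 50, 2737 and 2964 with counts halved, and 2764 and 3019 with limma on log2(FPKM + 1) (2871 and 3332 with 0.1 added). The share of higher calls was 47.1%, and 46.4% and 48.1% under the other scalings.

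The groups share replicate numbers, which nothing in the labels ties to a shared day or batch. Deviations of same-numbered libraries correlated at -0.17 over 16884 genes. Each line gives only a single difference between its libraries, so this value cannot show whether the numbers pair the samples. The replicate block gave 2510 higher and 2874 lower, and with the ZR-75-30 numbers crossed, chosen after seeing the data, 2721 and 3147.

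Of 343 named genes, 332 were called, 163 of them in all 18 alternatives, and none reversed. Calls were lost for 158 genes with the 8 monolayers, 87 without BT474 replicate 2, 82 without BT474 replicate 1, 65 without ZR-75-30 replicate 2, 43 without ZR-75-30 replicate 1 and 41 with the 4 libraries alone. Of 915 list medians recomputed, 796 moved by less than the spread between library pairs and 34 changed sign.

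The highest window median, 3.96, was 2.14 with 25 genes per window, 2.24 with limma on log2(FPKM + 1), and 3.91 (without ZR-75-30 replicate 2) to 4.29 (without BT474 replicate 1) with 1 library left out. The lowest, -4.86, was -2.80 with 25 genes, -5.29 with no count filter, -3.42 with a minimum count of 50, -3.49 with counts halved, -4.60 with quality weights, -2.54 and -3.38 with limma on log2(FPKM + 1) and log2(FPKM + 0.1), and -5.77 (without ZR-75-30 replicate 2) to -4.05 (without ZR-75-30 replicate 1) with 1 library left out. With no count filter, log2 levels differed between the replicates of a line with an SD of 0.67 in ZR-75-30 and 0.29 in BT474. With 2 libraries per line, 5096 of the 5904 called genes differed by more than 1 on the log2 scale. Genes with 0 counts are limited by depth to 0.0517 CPM in ZR-75-30 and 0.0348 CPM in BT474.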
